A study of Mus musculus with 9 samples.

Results

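The EGF family was examined as 10 genes, of which 6 encode ligands (Egf, Hbegf, Areg, Btc, Ereg and Tgfa) and 4 encode receptors (Egfr, Erbb2, Erbb3 and Erbb4). They were found by official gene symbol among the 21950 genes with mRNA values in the renal cortex, and the values of all transcripts of a gene were added up. The study compared 3 groups of male mice on the C57BL/KsJ background at 15 weeks of age, with 3 mice per group and 1 library per mouse. The control group held db/m littermates, which carry 1 copy of the db mutation of the leptin receptor gene (Lepr) and received vehicle. The dbdb group carried the mutation on both copies, is obese and diabetic, and received vehicle by gavage. The dbR group carried it on both copies as well and was given the PPARγ agonist rosiglitazone by gavage at 20 mg/kg/day over 8 weeks, starting at 7 weeks of age. No control mice were given rosiglitazone, so its effect without the db/db genotype cannot be read from these data.

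EGF family ligands are made as membrane proteins, and metalloproteases of the ADAM type cut the active part off the cell surface. The released ligand binds Egfr or Erbb4, these receptors pair among themselves or with Erbb2 and Erbb3, and the pairs signal through Ras and the MAP kinases, PI3 kinase and STAT proteins. In the kidney, Egf is known as a product of the thick ascending limb and the distal convoluted tubule, where it acts on magnesium uptake through the channel Trpm6.

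Levels are given in FPKM, the number of sequenced fragments per kilobase of transcript, scaled to the mapped fragments of the library, so genes of different length can be compared. The label renal cortex was checked against marker genes. Over the 9 libraries, the proximal tubule marker Slc34a1 lay between 1146 and 1641 FPKM, the thick ascending limb marker Umod between 208.8 and 375 FPKM, the distal convoluted tubule marker Slc12a3 between 99.4 and 238 FPKM, and the podocyte marker Podxl between 34.2 and 50.3 FPKM. None of the markers listed for these 4 cell types was at 0 in any library. Adipocyte markers were close to absent, with a summed FPKM of 5 genes between 0 and 1.13. FPKM values hold no read counts, but the size of the steps between low values shows how deeply each was sequenced. Relative to control 1, taken as 1, depth was 0.950 in control 2, 1.03 in control 3, 0.940, 0.965 and 0.985 in dbdb mice, and 1.14, 1.05 and 0.916 in dbR mice. 1 library stood apart in an immune marker: Cd74, which takes part in antigen presentation, was at 872 FPKM in dbdb 3 and between 57.6 and 188 FPKM in the other 8 libraries. In control 1, the summed FPKM of 7 smooth muscle and mesenchymal markers was 64.3, against 27.7 to 49.98 in the other libraries.

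Of the 10 genes, 8 reached a mean of 0.1 FPKM over the 9 libraries, and Areg and Ereg did not. Those 8 were tested together with all 14537 genes above this filter. The test was limma on log2(FPKM + 0.1), where a difference of 1 is a change by a factor of 2. The p-values were adjusted with the Benjamini-Hochberg method over all genes, and a gene was called at an adjusted p under 0.05.

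In dbdb vs. control, 1 of the 8 members was upregulated (Erbb2) and none downregulated by limma, while 26.4% of all genes were called and 1 member was at an unadjusted p under 0.05 beside 38.8% of all genes. The libraries of the groups did not overlap for 2 members (Erbb2 and Tgfa), against 42.4% of all genes. Neither share of the members was above that of all genes. The median log2 fold change of the 8 members was 0.09, and that of all genes was -0.003. Without dbdb 2, 3 members were called, with Btc and Erbb4 added to Erbb2.

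In dbR vs. dbdb, 0 of the 8 members were called by limma, and 0.743% of all genes were. At an unadjusted p under 0.05 there was 1 member, Hbegf, beside 17.5% of all genes. The count of all genes called, 108, varied with the library left out. It was 2 without dbR 2, 10 without dbR 3, 31 without dbdb 2, 36 without dbdb 1 and 70 without dbR 1. It was 141 without dbdb 3, and 72 to 91 without a control library. Such fits also hold fewer libraries. No member was called in any of these fits, by limma. Groups without overlap were found for 1 member, Tgfa, and for 22.7% of all genes. The median log2 fold change was 0.0036 for the members and -0.0022 for all genes.

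In dbR vs. control, 4 of the 8 members were called by limma, beside 24.1% of all genes. Erbb2 and Egf were upregulated and Hbegf and Tgfa were downregulated, where the call of Egf was lost under quantile normalization and that of Tgfa when mitochondrial genes were left out and the libraries also scaled to the same sum. The libraries did not overlap for 5 members, the same 4 and Erbb4, against 41.9% of all genes. The median was 0.13 for the members and -0.0014 for all genes. Without control 3 or without dbR 2, 2 members were called. The 3 comparisons share libraries, so their results for a gene are not independent of each other.

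1 alternative, which combines 2 steps, shifted the median of all genes by over 0.1. When mitochondrial genes were left out and each library was also scaled to the same sum, the median log2 fold change of all genes in dbdb vs. control shifted by 0.15. Of the genes called, the share that was upregulated then went from 49.5% to 78.3% in dbdb vs. control, from 75.9% to 48.6% in dbR vs. dbdb, and from 51.1% to 70.5% in dbR vs. control. The 2 steps were not tried apart. With each library scaled to the same 75th percentile, that share in dbR vs. control was 62.3%. The direction of small fold changes therefore depends on the scaling, and the fold changes of Egfr and Erbb3 in dbdb vs. control were small enough to change sign.

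**Figure D1:**
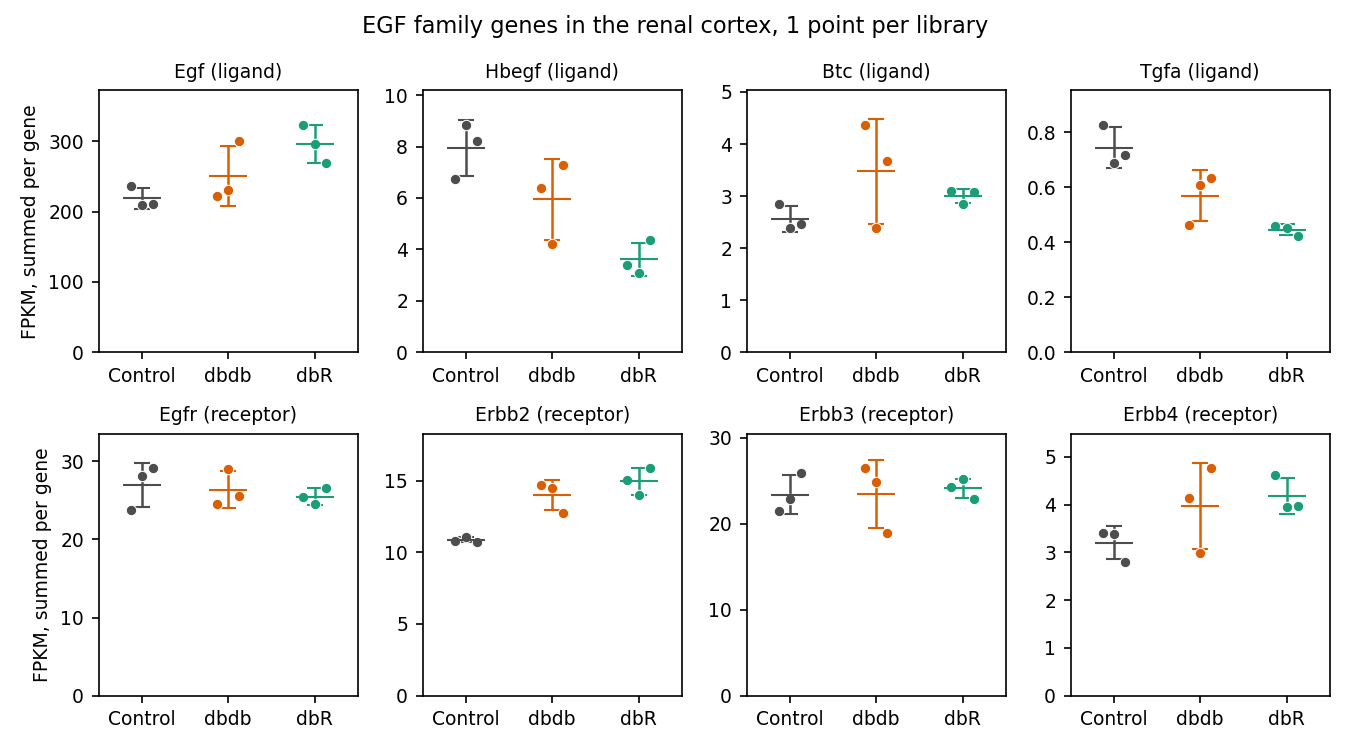
FPKM of the 8 tested EGF family genes, 1 panel per gene with its own axis from 0, 1 point per mouse and bars for the mean and SD, with control, dbdb and dbR mice side by side. Egf lay between 209.9 and 324 FPKM, above every other member, and Hbegf and Erbb2 separated the dbR libraries from the control libraries in opposite directions.

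Egf, the precursor of epidermal growth factor, was the most abundant member, with a mean of 255 FPKM over the 9 libraries and rank 299 among all genes. It stood at 236, 209.9 and 211 FPKM in control mice, at 222, 231 and 300.04 FPKM in dbdb mice, and at 324, 296 and 269 FPKM in dbR mice. Every dbR library was above every control library, while the dbdb libraries overlapped with both groups, because dbdb 3 reached the level of the dbR mice and the other 2 dbdb mice the level of the controls. Egf was upregulated 1.35-fold in dbR vs. control, with a log2 fold change of 0.43 (95% confidence interval 0.17 to 0.69, adjusted p = 0.0228). The log2 fold change was 0.18 in dbdb vs. control (adjusted p = 0.272), while dbR vs. dbdb gave 0.25 (adjusted p = 0.305), and neither was called. The call in dbR vs. control was lost without control 2 (adjusted p = 0.0695), control 3 (0.0687), dbR 1 (0.0795) or dbR 2 (0.0614), and the lowest adjusted p with 1 library left out was 0.00485.

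The segments that make Egf have markers of their own. In bulk tissue, fewer cells of a type and less RNA per cell cannot be told apart, for Egf and for every gene below. The summed FPKM of 7 thick ascending limb markers was 614, 518 and 545 in control mice, 444, 461 and 656 in dbdb mice, and 615, 591 and 541 in dbR mice, with Umod (uromodulin) as the most abundant. Like Egf, this sum was highest among the dbdb mice in dbdb 3. In dbR vs. control, 4 of the 7 markers were upregulated (Slc12a1, Kcnj1, Cldn16 and Ptger3) and 1 was downregulated (Cldn10), and none was at 0 in any library. In dbdb vs. control, 2 were upregulated (Kcnj1 and Ptger3) and Cldn10 was downregulated, and in dbR vs. dbdb limma called 0 of the 7 (2 at an unadjusted p under 0.05). The part of these markers in the result for Egf was not tested.

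Relative to single markers, Egf gave different pictures. Its FPKM divided by that of Slc12a1, the NKCC2 transporter of the thick ascending limb, was 2.43, 2.59 and 2.38 in control mice, 2.17, 2.40 and 2.30 in dbdb mice, and 2.21, 2.45 and 2.54 in dbR mice. This ratio overlapped between all 3 groups. Divided by Umod, Egf was at 0.731, 0.882 and 0.784 in control mice, at 1.06, 1.08 and 0.800 in dbdb mice, and at 1.12, 1.07 and 1.02 in dbR mice. Here the dbR mice lay above the control mice without overlap, and dbdb 3 was the only dbdb mouse within the control range. Umod itself had a log2 fold change of 0.01 in dbR vs. control (adjusted p = 0.982), and Slc12a1 one of 0.47 (adjusted p = 0.0315).

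Hbegf, the heparin-binding EGF-like growth factor, binds Egfr and Erbb4. Its level was 6.73, 8.85 and 8.23 FPKM in control mice, 6.38, 4.19 and 7.27 FPKM in dbdb mice, and 3.38, 3.09 and 4.35 FPKM in dbR mice. All 3 dbR mice were below all 3 control mice, while dbdb 1 lay between these groups, dbdb 2 within the dbR range and dbdb 3 within the control range. Hbegf was downregulated in dbR vs. control, with a log2 fold change of -1.12 (95% confidence interval -1.57 to -0.67, adjusted p = 0.00326), to 0.460 of the control level. The log2 fold change was -0.44 in dbdb vs. control (adjusted p = 0.136), while dbR vs. dbdb gave -0.68 (adjusted p = 0.129). The paper, whose calls were made with Cufflinks, describes HBEGF as lower in db/db mice than in controls and lower still after rosiglitazone. Both estimates here had that direction, and limma called neither. With 1 library left out, the adjusted p in dbR vs. control lay between 0.00111 and 0.0161, and the call held in each of these 9 fits.

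Tgfa, transforming growth factor alpha, is a ligand of Egfr and was near the lower end of what was tested. Its level was 0.828, 0.688 and 0.716 FPKM in control mice, 0.463, 0.610 and 0.634 FPKM in dbdb mice, and 0.461, 0.453 and 0.423 FPKM in dbR mice. The 3 groups did not overlap: control mice were highest and dbR mice lowest, with 0.461 in dbR 1 next to 0.463 in dbdb 1. Tgfa was downregulated in dbR vs. control, with a log2 fold change of -0.63 (95% confidence interval -0.998 to -0.255, adjusted p = 0.0222). It was not called in dbdb vs. control (log2 fold change -0.34, adjusted p = 0.160) or in dbR vs. dbdb (-0.28, adjusted p = 0.411). The call was lost without control 1 (adjusted p = 0.0727), control 3 (0.0536), dbR 2 (0.0530) or dbR 3 (0.0644), and the lowest adjusted p with 1 library left out was 0.0192.

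Btc, betacellulin, binds Egfr and Erbb4 and was not called in any comparison. It was at 2.84, 2.39 and 2.46 FPKM in control mice, 4.37, 2.38 and 3.68 FPKM in dbdb mice, and 3.09, 2.84 and 3.07 FPKM in dbR mice. The dbdb mice spread most, with dbdb 2 below every control mouse and the other 2 above all mice of both other groups. The log2 fold change was 0.39 in dbdb vs. control (adjusted p = 0.155), -0.17 in dbR vs. dbdb (adjusted p = 0.698) and 0.22 in dbR vs. control (adjusted p = 0.427). Without dbdb 2, Btc was called in dbdb vs. control (log2 fold change 0.63, adjusted p = 0.00885).

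Areg (amphiregulin) and Ereg (epiregulin) were at or near 0. Areg was listed at 0 in 5 libraries, among them all 3 control libraries, and at 0.0740 and 0.0724 FPKM in dbdb 2 and dbdb 3 and 0.0313 and 0.0340 FPKM in dbR 1 and dbR 2. Ereg was listed at 0 in all 9 libraries. On the chromosome, these 2 genes are neighbours of Btc: Ereg lies at chr5:91074622-91093646, Areg at chr5:91139599-91148432 and Btc at chr5:91357261-91402994 (GRCm38), so 1 stretch holds 2 ligands near 0 and 1 expressed ligand.

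Egf dominated the ligand mRNA in every group. It held between 94.6% and 97.9% of the summed ligand FPKM, which was 247, 222 and 223 in control mice, 233, 238 and 312 in dbdb mice, and 331, 302 and 277 in dbR mice. The share of Hbegf in this sum was 2.73%, 3.99% and 3.70% in control mice, 2.74%, 1.76% and 2.33% in dbdb mice, and 1.02%, 1.02% and 1.57% in dbR mice. Egf and Hbegf moved apart in dbR mice, as a ratio within each library shows independently of the scaling. Egf divided by Hbegf was 35.1, 23.7 and 25.7 in control mice, 34.8, 55.0 and 41.3 in dbdb mice, and 95.7, 95.6 and 62.0 in dbR mice. The dbR libraries were above all others in this ratio, and the dbdb and control libraries overlapped. Btc divided by Hbegf was 0.423, 0.270 and 0.299 in control mice, 0.686, 0.568 and 0.506 in dbdb mice, and 0.915, 0.918 and 0.706 in dbR mice. Here the 3 groups did not overlap, with 0.686 in dbdb 1 next to 0.706 in dbR 3, and the ratio was not tested.

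**Figure D2:**
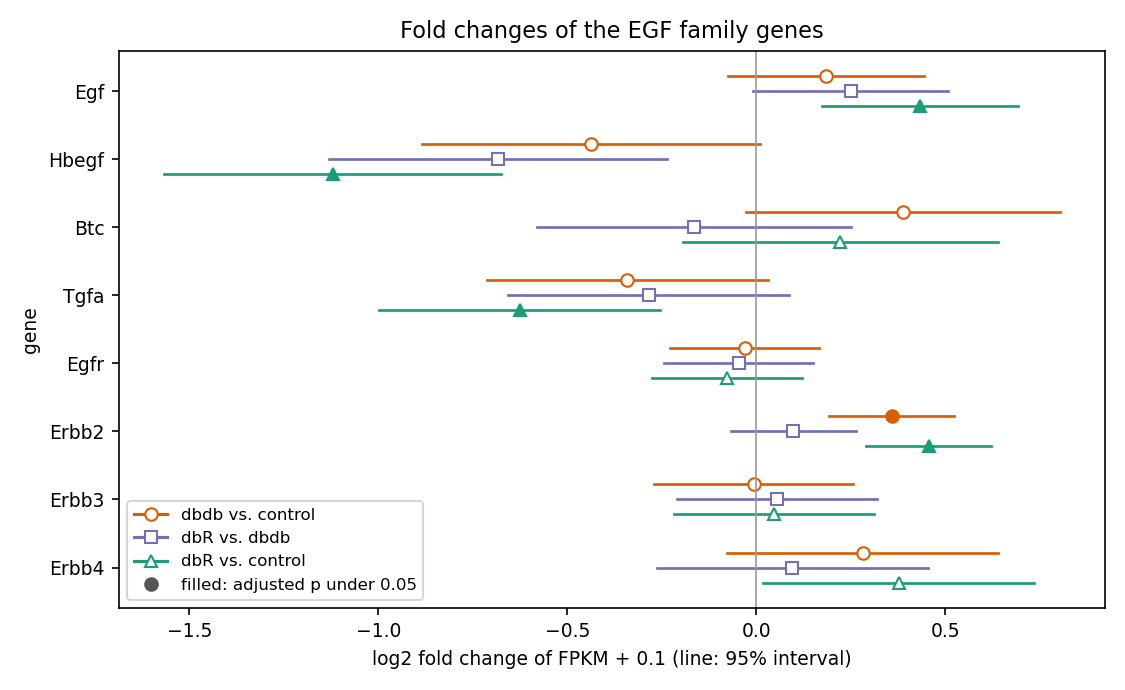
Log2 fold changes with 95% confidence intervals of the 8 tested EGF family genes in the 3 comparisons. Erbb2 was called in dbdb vs. control (0.36), and Erbb2 (0.46), Egf (0.43), Tgfa (-0.63) and Hbegf (-1.12) in dbR vs. control, with the call of Egf lost under quantile normalization and that of Tgfa under same-sum scaling without mitochondrial genes.

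Erbb2 has no known ligand of its own and serves as the partner of the other receptors. It was at 10.8, 11.1 and 10.7 FPKM in control mice, 14.7, 14.5 and 12.8 FPKM in dbdb mice, and 15.0, 14.0 and 15.9 FPKM in dbR mice. The control mice were close together and below every db/db mouse, treated or not, while dbdb and dbR mice overlapped. Erbb2 was upregulated 1.28-fold in dbdb vs. control (log2 fold change 0.36, 95% confidence interval 0.19 to 0.52, adjusted p = 0.00638). It was also upregulated in dbR vs. control, by 1.37-fold (log2 fold change 0.46, 95% confidence interval 0.29 to 0.62, adjusted p = 0.00194). In dbR vs. dbdb, the log2 fold change was 0.10 (adjusted p = 0.532). Leaving out 1 library kept the adjusted p between 0.00418 and 0.0266 in dbdb vs. control and between 0.00130 and 0.0102 in dbR vs. control.

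Egfr, the receptor of Egf, Hbegf, Tgfa and Btc, was the most abundant receptor and was not called in any comparison. Its level was 23.8, 28.1 and 29.1 FPKM in control mice, 24.6, 29.0 and 25.6 FPKM in dbdb mice, and 25.4, 24.5 and 26.6 FPKM in dbR mice. All 3 groups overlapped. The log2 fold change was -0.03 in dbdb vs. control (95% confidence interval -0.23 to 0.17, adjusted p = 0.828), -0.05 in dbR vs. dbdb (-0.24 to 0.15, adjusted p = 0.828) and -0.08 in dbR vs. control (-0.28 to 0.12, adjusted p = 0.569).

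Erbb3, which binds neuregulins and has little kinase activity, was close to Egfr in level. It was at 21.4, 22.9 and 25.9 FPKM in control mice, 26.5, 24.9 and 19.0 FPKM in dbdb mice, and 24.3, 25.1 and 22.9 FPKM in dbR mice. The groups overlapped, and both the highest and the lowest level of the 9 libraries were found in dbdb mice. The log2 fold change was -0.01 in dbdb vs. control (adjusted p = 0.973), 0.05 in dbR vs. dbdb (adjusted p = 0.855) and 0.05 in dbR vs. control (adjusted p = 0.814).

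Erbb4, a receptor for neuregulins, Hbegf and Btc, had the lowest level of the receptors. It was at 3.41, 3.38 and 2.80 FPKM in control mice, 4.15, 2.99 and 4.76 FPKM in dbdb mice, and 4.62, 3.95 and 3.98 FPKM in dbR mice. The dbR mice were above the control mice without overlap, and dbdb 2 was within the control range. Erbb4 was not called in dbdb vs. control (log2 fold change 0.28, adjusted p = 0.225), in dbR vs. dbdb (0.10, adjusted p = 0.805) or in dbR vs. control (0.38, 95% confidence interval 0.02 to 0.74, adjusted p = 0.118). Leaving out dbdb 2 gave a call in dbdb vs. control (log2 fold change 0.47, adjusted p = 0.0348) and in dbR vs. control (adjusted p = 0.0460).

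The summed FPKM of the 4 receptors was 59.4, 65.4 and 68.5 in control mice, 69.8, 71.4 and 62.1 in dbdb mice, and 69.3, 67.6 and 69.3 in dbR mice. Erbb2 held 18.2%, 16.9% and 15.7% of it in control mice, 21.0%, 20.3% and 20.6% in dbdb mice, and 21.7%, 20.7% and 22.9% in dbR mice. Every db/db mouse was above every control mouse in this share, which does not depend on the scaling of the library. The shares of the other 3 receptors overlapped between dbdb and control mice: Egfr held 40.0% to 42.9% in control mice and 35.2% to 41.2% in dbdb mice, Erbb3 35.0% to 37.7% and 30.5% to 37.9%, and Erbb4 4.09% to 5.74% and 4.19% to 7.68%. In dbR mice, Egfr held 36.2% to 38.3%, below the control range, while Erbb3 (33.0% to 37.2%) and Erbb4 (5.74% to 6.67%) overlapped with it. These shares were not tested. Erbb2 divided by Egfr was 0.455, 0.395 and 0.368 in control mice, 0.597, 0.501 and 0.499 in dbdb mice, and 0.593, 0.571 and 0.597 in dbR mice.

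Ordered by mean FPKM over the 9 libraries, the members were Egf (255), Egfr (26.3), Erbb3 (23.6), Erbb2 (13.3), Hbegf (5.83), Erbb4 (3.78), Btc (3.01), Tgfa (0.586), Areg (0.0235) and Ereg (0). Egf was 9.72 times as abundant as Egfr per length. The order was the same in 9 of 9 libraries for Egf above Egfr, Erbb3 above Erbb2, Erbb2 above Hbegf, Btc above Tgfa and Tgfa above Areg. For 3 neighbouring pairs the ranges over the 9 libraries overlapped. Egfr was above Erbb3 in 7 of 9 libraries, Hbegf above Erbb4 in 7 of 9, with the ranges apart in the control mice, and Erbb4 above Btc in 8 of 9, with the ranges apart in the dbR mice.

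Across the 9 libraries, which include the differences between the groups, the log2 levels of some members went together and others went apart. The Pearson r was -0.903 for Tgfa and Erbb2, -0.763 for Hbegf and Erbb2, and -0.674 for Egf and Hbegf. Hbegf and Tgfa had an r of 0.712, Egf and Erbb4 one of 0.783, and Btc and Erbb4 one of 0.760 (n = 9 libraries). Compared to the control libraries, those of the dbR mice were lower in both Hbegf and Tgfa and higher in both Egf and Erbb4.

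**Figure D3:**
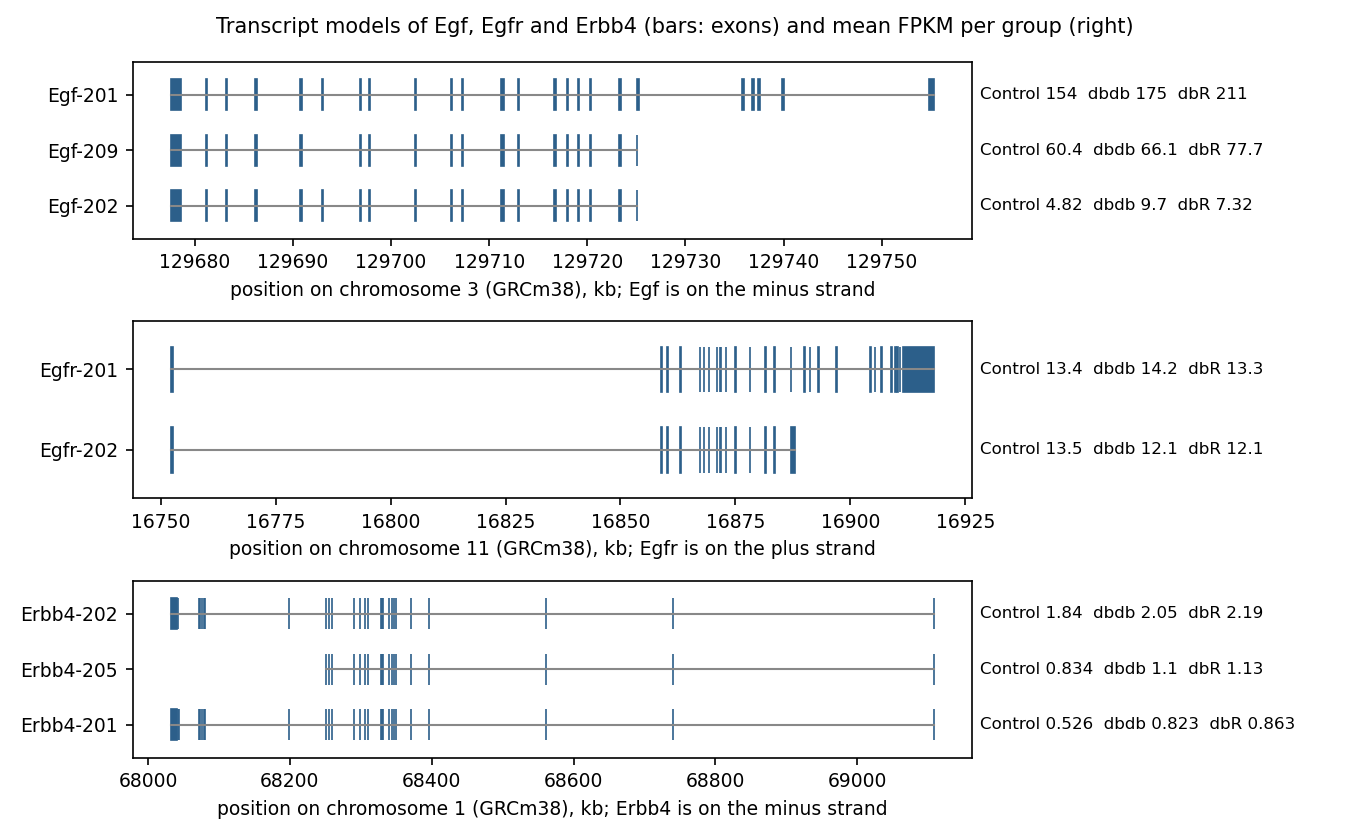
Exons of the transcripts of Egf, Egfr and Erbb4 along GRCm38 coordinates (kb), in order of abundance for Egf and Erbb4, with the mean FPKM of each group on the right. Of the FPKM of its gene, the main internal-start transcript of Egf held 26.7% over the 9 libraries, the Egfr transcript that ends early 47.9%, and the Erbb4 transcript with an added exon 19.5%.

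Some members were expressed as more than 1 transcript, and the division between transcripts rests on how Cufflinks assigned shared reads. The full-length Egf transcript (ENSMUST00000029653), with 24 exons and a coding sequence of 1217 codons, held 70.5% of the Egf FPKM summed over the 9 libraries. A shorter one (ENSMUST00000199615), with 18 exons and 675 codons, held 26.7%, and another (ENSMUST00000197079), with 19 exons and 716 codons, held 2.85%. These last 2 start inside the gene and lack the first exons of the full-length form. Their share together was 29.8%, 31.2% and 28.4% in control mice, 31.4%, 28.8% and 30.5% in dbdb mice, and 28.3%, 30.04% and 27.7% in dbR mice. The 3 groups overlapped in this share. By limma on single transcripts in dbR vs. control, the log2 fold change was 0.46 for the full-length form (adjusted p = 0.0545) and 0.36 for the main internal-start form (adjusted p = 0.146), and neither was called.

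Egfr was divided between a full-length and a short form. The full-length form (ENSMUST00000020329; 28 exons, 1210 codons) held 51.8% of the FPKM and the short form (ENSMUST00000102884; 16 exons, 655 codons) held 47.9%. The short form ends before the part of the coding sequence that holds the transmembrane segment and the kinase. Its share was 52.5%, 47.7% and 50.8% in control mice, 48.0%, 46.1% and 44.0% in dbdb mice, and 47.8%, 46.7% and 47.3% in dbR mice. The dbdb range overlapped with that of the controls, and dbR 1 was within the control range too. Both coding sequences are the same over 1926 bases (642 codons), after which the short form has 13 codons of its own. The stretch where they part is shown because it is what tells the 2 receptor forms apart. It was read from GENCODE M21 models on GRCm38, plus strand, with the last 30 shared bases in lower case and the next 39 bases in capitals, at chr11:16887157-16887225 for the short form and spliced across chr11:16887157-16889952 for the full-length form.
Egfr short form: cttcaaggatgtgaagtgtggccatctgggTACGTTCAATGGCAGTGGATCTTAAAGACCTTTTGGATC
Egfr full-length form: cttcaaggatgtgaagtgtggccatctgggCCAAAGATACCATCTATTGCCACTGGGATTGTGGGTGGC

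Erbb4 was divided between 3 transcripts. The first (ENSMUST00000121473; 27 exons, 1292 codons) held 53.5% of its FPKM, the second (ENSMUST00000153432; 19 exons, an incomplete model) held 27.0%, and the one with the most codons (ENSMUST00000119142; 28 exons, 1308 codons) held 19.5%. Compared to the first, this form has an added exon in the part that encodes the tail of the receptor inside the cell, and the models also start at different bases. Its share was 12.6%, 21.7% and 14.7% in control mice, 19.3%, 26.4% and 18.4% in dbdb mice, and 15.4%, 18.02% and 29.4% in dbR mice, with overlap between all groups. Another exon, next to the membrane, has 2 alternatives: 75 bases in the first transcript and the added-exon form and 45 bases in the second, which decide whether the receptor can be cut by ADAM17. The 3 exons are printed because they are the bases by which these forms differ. They come from GENCODE M21 on GRCm38, minus strand, all in capitals since each exon is absent as a whole from the form it is compared with (the 75-base exon is also in the added-exon form): 48 bases at chr1:68043908-68043955 (exon 26 of the added-exon form), 75 bases at chr1:68290243-68290317 (exon 16 of the first) and 45 bases at chr1:68290439-68290483 (exon 16 of the second).
Erbb4 added-exon form exon 26: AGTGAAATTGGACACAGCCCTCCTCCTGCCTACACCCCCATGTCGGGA
Erbb4 first form exon 16: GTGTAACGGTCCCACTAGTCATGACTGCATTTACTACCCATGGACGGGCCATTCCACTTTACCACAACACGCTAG
Erbb4 second form exon 16: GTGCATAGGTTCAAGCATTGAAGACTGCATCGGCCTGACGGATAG

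The shares of the internal-start forms of Egf, of the short form of Egfr and of the added-exon form of Erbb4 were compared between the groups with an exact permutation test. Over the 9 tests, the exact p lay between 0.2 and 0.8 and the adjusted p between 0.6 and 0.8. With 3 libraries per group the smallest possible p is 0.1, so these tests cannot show that the shares were equal. The main transcript of Tgfa held 97.0% of its FPKM, and the other reached 24.7% in dbdb 3 alone. Hbegf, Btc, Erbb2 and Erbb3 each had 1 transcript with a value above 0.

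The starts of Egf and Erbb2, the members that were upregulated in dbR vs. control, are shown as promoter windows of 250 bases before and 50 bases after the start, from RefSeq (GRCm38.p6). Egf has 2 such windows, 1 for each group of transcripts. The first, chr3:129755273-129755572 on the minus strand, belongs to the full-length form, and the second, chr3:129725037-129725336 on the minus strand, to the main internal-start form. Capitals mark the 30 bases just before the first base of each form. The window of Erbb2 is at chr11:98412234-98412533 on the plus strand, with a CCAAT match in capitals.
Egf full-length window: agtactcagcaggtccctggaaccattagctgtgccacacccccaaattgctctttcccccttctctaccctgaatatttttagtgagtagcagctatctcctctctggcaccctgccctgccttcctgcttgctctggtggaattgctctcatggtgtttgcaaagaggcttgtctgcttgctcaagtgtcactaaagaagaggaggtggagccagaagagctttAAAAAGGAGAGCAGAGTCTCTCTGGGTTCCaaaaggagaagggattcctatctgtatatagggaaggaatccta
Egf internal-start window: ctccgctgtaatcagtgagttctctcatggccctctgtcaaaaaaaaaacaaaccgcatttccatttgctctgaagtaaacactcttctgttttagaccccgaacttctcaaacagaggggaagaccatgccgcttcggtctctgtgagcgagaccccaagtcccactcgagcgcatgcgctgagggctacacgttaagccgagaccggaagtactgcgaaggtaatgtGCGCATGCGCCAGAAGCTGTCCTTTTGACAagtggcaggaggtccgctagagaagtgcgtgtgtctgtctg
Erbb2 window: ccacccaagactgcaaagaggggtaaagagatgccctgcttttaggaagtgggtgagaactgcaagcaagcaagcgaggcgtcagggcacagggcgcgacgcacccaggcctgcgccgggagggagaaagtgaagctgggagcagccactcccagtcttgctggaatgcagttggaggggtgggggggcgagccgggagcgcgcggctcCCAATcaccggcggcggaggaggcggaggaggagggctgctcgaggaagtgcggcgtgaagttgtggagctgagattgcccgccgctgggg

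A window was found for 7 of the 10 members, 8 windows in all, and the members without one were Hbegf, Ereg and Erbb3. Each was searched on both strands for 4 motifs: the PPAR response element given by AGGTCA repeated directly with any 1 base between the copies, the nuclear receptor letters AGGTCA alone, which are contained in it, the TATA box TATAAA and the CCAAT box CCAAT. Among all 32851 windows, these were found in 0.0396%, 16.3%, 13.6% and 37.4%. The 8 windows held 2 matches, TATAAA 31 bases before the start of Areg and CCAAT 41 bases before the start of Erbb2. These matches describe the letters of the windows, and binding of a factor was not measured. The share of G and C was 49.0% in the full-length window of Egf, 52.3% in its internal-start window, 66.0% for Erbb2, 62.3% for Egfr and 70.7% for Tgfa, and the mean of all windows was 53.8%.

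For 5 members, the genes with the most similar pattern were taken by Pearson r of log2(FPKM + 0.1) over the 9 libraries, among 11614 other genes whose mean FPKM was 1 or more. Nearest to Egf were Shd (r = 0.979), Tspan15 (0.9746), Sh2d4a (0.966), Pcdhgc3 (0.960) and Phldb1 (0.957). Nearest to Hbegf were Usp16 (0.954), Cenpv (0.948), Rad17 (0.948), Coq10a (0.943) and Hbs1l (0.943). For Tgfa, compared with 11615 genes, they were Uso1 (0.959), Yipf5 (0.959), Gm5900 (0.955), Twf1 (0.953) and Osbp2 (0.953). Osbp2 was downregulated in dbdb vs. control (log2 fold change -0.84, adjusted p = 0.00655) and in dbR vs. control (-1.26, adjusted p = 0.000868). Yipf5 was also downregulated in dbdb vs. control (-0.25, adjusted p = 0.0178), while Uso1, Gm5900 and Twf1 were not called there. Uso1, Yipf5, Gm5900 and Twf1 were all downregulated in dbR vs. control. All were picked for their pattern over the same libraries, so these calls are not independent of the result for Tgfa. Nearest to Erbb2 were Zfp516 (0.983), Agfg2 (0.982), Zc3h3 (0.981), Cyp4a10 (0.978) and Plin3 (0.974). Cyp4a10, a fatty acid hydroxylase, was at 79.2, 98.9 and 80.6 FPKM in control mice, 209.6, 176 and 165 FPKM in dbdb mice, and 211, 189.9 and 252 FPKM in dbR mice. Egfr had its nearest genes at lower r, Rbm28 (0.912), Gtf3c4 (0.885), Ptpn3 (0.859), Sufu (0.855) and Nup35 (0.846).

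Around the members, genes that cut ligands, restrain receptors or act on their turnover, relay the signal or respond to it were described from lists. The count called in each list is to be read beside the share of all genes called. That share was 26.4% in dbdb vs. control, 0.743% in dbR vs. dbdb and 24.1% in dbR vs. control. At an unadjusted p under 0.05 by limma it was 38.8%, 17.5% and 36.8%. No list was tested as a set. Of 5 other ErbB ligands, 3 were tested and 0 were called by limma in any comparison (1, 0 and 0 at an unadjusted p under 0.05 in dbdb vs. control, dbR vs. dbdb and dbR vs. control), Nrg1 (neuregulin 1) being the most abundant, and Epgn and Nrg3 were under the filter. Of 12 shedding genes, 11 were tested. In dbdb vs. control, 2 were upregulated (Rhbdf1 and Rhbdf2) and 4 were downregulated (Adam10, Adam17, Adam19 and Timp3), with a median log2 fold change of -0.12. In dbR vs. control, 1 was upregulated (Rhbdf2) and 2 were downregulated (Adam10 and Timp3), with a median of -0.19, and in dbR vs. dbdb limma called 0 of 11 (median -0.11, 1 at an unadjusted p under 0.05). Adam10, the sheddase of Egf and Btc, was at 26.8, 27.8 and 27.9 FPKM in control mice, 21.6, 21.99 and 22.5 FPKM in dbdb mice, and 22.3, 22.9 and 22.2 FPKM in dbR mice. Both db/db groups lay below the controls without overlap, with a log2 fold change of -0.32 in dbdb vs. control (adjusted p = 0.00158), and dbR vs. control gave -0.29 (adjusted p = 0.00285). Adam17, the sheddase of Hbegf, Tgfa and Areg, was downregulated in dbdb vs. control (-0.25, adjusted p = 0.0208) and not called in dbR vs. control (-0.19, adjusted p = 0.0589). Timp3, which inhibits Adam17, was downregulated in both comparisons (-0.66, adjusted p = 0.000412, and -0.78, adjusted p = 0.000209). Rhbdf2 (iRhom2), which brings Adam17 to the cell surface, was upregulated in both (0.62, adjusted p = 0.00820, and 0.44, adjusted p = 0.0392).

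Among 14 genes that inhibit the receptors or act on their turnover, 2 were upregulated in dbdb vs. control (Lrig1 and Ptpn1) and 1 was downregulated (Usp8). In dbR vs. control, 2 were upregulated (Lrig2 and Sh3kbp1) and 2 downregulated (Socs4 and Usp8). The medians were 0.15 in dbdb vs. control, -0.04 in dbR vs. dbdb, where limma called 0 of 14 (2 at an unadjusted p under 0.05), and 0.07 in dbR vs. control. Lrig1, which promotes the degradation of ErbB receptors, had a log2 fold change of 0.54 in dbdb vs. control (adjusted p = 0.00638), next to the 0.36 of Erbb2. Errfi1 (Mig6), an inhibitor that is itself induced by Egfr signalling, was the most abundant, between 166 and 310 FPKM, and was not called.

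Of 28 relay genes, 6 were upregulated and 3 downregulated in dbdb vs. control (median 0.07), beside 26.4% of all genes called. In dbR vs. control, 2 were upregulated and 5 downregulated (median -0.05), beside 24.1% of all genes called. Map2k1 (MEK1) had a log2 fold change of 0.47 in dbdb vs. control, and dbR vs. control gave 0.46, while Braf, upstream of it, had -0.49 and -0.41. Mapk3 was also upregulated in both comparisons (0.25 and 0.31), and Pik3ca was downregulated in both (-0.35 and -0.31). Stat3 was upregulated in dbdb vs. control (0.87, adjusted p = 0.00159) and not called in dbR vs. control (0.39, adjusted p = 0.0666). In dbR vs. dbdb limma called 0 of 28 (median -0.06, 5 at an unadjusted p under 0.05).

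Of 18 feedback and target genes of MAP kinase signalling, 4 were upregulated in dbdb vs. control (Dusp5, Ier3, Ccnd1 and Myc) and 2 downregulated (Dusp4 and Spred1), with a median of 0.17. In dbR vs. control, 4 were upregulated (Spry1, Etv4, Etv5 and Myc) and Dusp4 was downregulated, with a median of 0.24; Myc, Etv5 and Spred1 were named after their values were seen. Spry1, a feedback inhibitor of receptor tyrosine kinases, was at 6.01, 4.54 and 3.96 FPKM in control mice, 5.40, 6.02 and 6.49 FPKM in dbdb mice, and 8.15, 9.53 and 9.32 FPKM in dbR mice. The dbR mice were above all others, and Spry1 was upregulated in dbR vs. control (log2 fold change 0.90, adjusted p = 0.00167). In dbR vs. dbdb, limma called 0 of 18 (median 0.07, 6 at an unadjusted p under 0.05).

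Magnesium transport in the distal convoluted tubule is a known target of Egf. Of 9 genes, 8 were tested (Kcna1 was under the filter), and 4 were upregulated in dbdb vs. control (Trpm6, Cnnm2, Slc41a1 and Slc41a3), 2 in dbR vs. control (Trpm6 and Slc41a3), and 0 were called by limma in dbR vs. dbdb (5 at an unadjusted p under 0.05). The medians were 0.15, 0.08 and -0.19, and Fxyd2 was the most abundant. Trpm6, the channel on which Egf acts, was at 2.04, 2.94 and 2.22 FPKM in control mice, 5.32, 5.69 and 5.98 FPKM in dbdb mice, and 4.42, 4.74 and 4.82 FPKM in dbR mice. All db/db mice were above all controls, with a log2 fold change of 1.22 in dbdb vs. control (adjusted p = 0.000162), and dbR vs. control gave 0.94 (adjusted p = 0.000721).

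Trpm6 is also 1 of 6 distal convoluted tubule markers, of which dbdb vs. control had 5 upregulated and dbR vs. control 6, while limma called 0 in dbR vs. dbdb (2 at an unadjusted p under 0.05). Their summed FPKM was 281, 273 and 248 in control mice, 515, 547 and 626 in dbdb mice, and 507, 578 and 508 in dbR mice, with Slc12a3 (NCC) as the most abundant. The part of these cells in the results for Trpm6 and Egf was not tested.

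The other marker lists give the cell types against which the members can be read. Collecting duct markers had 7 of 8 upregulated in both comparisons with control, and their summed FPKM was 141, 124 and 146 in control mice, 292, 199 and 252 in dbdb mice, and 217, 226 and 231 in dbR mice. Like Erbb2, this sum was higher in every db/db mouse than in any control mouse. The same held for the sum of the distal convoluted tubule markers and for that of the injured tubule markers. The latter was 335 to 416 in control mice, 936 to 1332 in dbdb mice and 808 to 935 in dbR mice. Nearly all of it was 1 gene, Spp1, at 331 to 411 FPKM in control mice, 932 to 1326 in dbdb mice and 802 to 927 in dbR mice. This sum therefore describes Spp1 and not the list as a whole. Of 6 podocyte markers, 3 were upregulated in dbdb vs. control (Nphs1, Podxl and Ptpro) and 2 in dbR vs. control (Nphs1 and Podxl). Of 8 proximal tubule markers, 2 were upregulated (Slc5a2 and Slc5a12) and 2 downregulated (Slc22a6 and Slc27a2) in dbdb vs. control, and 1 and 2 in dbR vs. control. Injured tubule markers had 2 of 6 upregulated (Lcn2 and Spp1) and 1 downregulated (Havcr1) in both comparisons with control.

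Of 8 immune cell markers, 6 were downregulated in dbdb vs. control, and dbR vs. control had 2 (Ptprc and Csf1r), and the most abundant, Cd74, was not called. Endothelial markers had 4 of 6 downregulated in dbdb vs. control (Pecam1, Kdr, Cdh5 and Emcn), 3 upregulated in dbR vs. dbdb (Kdr, Emcn and Tek) and 2 upregulated in dbR vs. control (Ehd3 and Tek). Of 7 smooth muscle and mesenchymal markers, Col3a1 was downregulated in dbdb vs. control, and Pdgfrb was upregulated in dbR vs. dbdb and in dbR vs. control. The collecting duct marker Atp6v1g3 was the remaining listed gene called in dbR vs. dbdb. There, 5 of the 153 listed genes tested were called, beside 0.743% of all genes, and no EGF family member was. This count of 5 was 0 without dbR 2 or dbR 3, 1 without dbdb 1 or dbdb 2 and 3 without dbR 1. Of the 5 adipocyte markers, 2 were tested and 0 were called by limma in any comparison (2 at an unadjusted p under 0.05 in dbdb vs. control). The part of these cell types in the levels of the EGF family was not tested.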

How the data were processed

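The authors deposited FPKM values of 50660 mRNA transcripts, which the processing notes of the submitters credit to TopHat2 2.0.9 and Cufflinks 2.1.1 on GRCm38.p2. FPKM was summed over the transcripts of each gene. Genes whose mean reached 0.1 FPKM were tested on log2(FPKM + 0.1) with limma 3.58.1 in R 4.3.3, in 1 model of the 3 groups with a variance trend. Tests were two-sided, with Benjamini-Hochberg adjustment over all genes tested. The test of the authors, made with Cufflinks, was not run because it needs reads and the files hold FPKM. Shares of transcripts were compared with an exact permutation test. Tables were made with Python 3.11.15, pandas 2.3.3 and NumPy 2.4.6.

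The members and the 18 gene lists (2 of them the members) were chosen with earlier results of these data known. Named are the members, the called genes of each list (up to 6, by adjusted p) with its most abundant gene, the 5 genes most similar to the most abundant ligand, the most abundant receptor and each called member, and transcripts with at least 10% of the FPKM of a member. The Egf transcript ENSMUST00000197079, with 2.85%, was named as well. For Itgam, the symbol has 2 gene IDs, and the one with the higher mean FPKM was used. The alternatives were pseudocounts of 1 and 0.01, no filter, a filter at a mean FPKM of 1, scaling to the 75th percentile, quantile normalization, scaling to the same sum without mitochondrial genes (2 steps at once), a fit to the 6 libraries compared, a replicate block, no variance trend, the most abundant transcript of each gene, and leaving out each library. The fit was tested on simulated data. The lncRNA files were not used. Sequences came from GENCODE M21 and RefSeq.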

Additional observations from a re-analysis of the deposited data

How the results depend on the processing

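Of 477 values of the 24 fold changes of the 8 tested members under the alternatives, 443 kept their direction and side of the threshold, 12 lost a call, 4 gained one and 18 changed sign. Hbegf and Erbb2 kept their calls in dbR vs. control, and Erbb2 in dbdb vs. control, under all 20 alternatives, and Egf and Tgfa did not in dbR vs. control. For Egf, the adjusted p was 0.0593 under quantile normalization and 0.0545 for its most abundant transcript, and for Tgfa it was 0.0610 without mitochondrial genes and with equal sums (2 steps at once, below called equal sums) and 0.155 for its most abundant transcript. Erbb4 was called in dbR vs. control in the fit to the 6 libraries compared (adjusted p = 0.0474). The members called were 1 to 3 in dbdb vs. control and 2 to 5 in dbR vs. control with 1 library left out, and 2 in dbR vs. control by the most abundant transcript, against 1 and 4. For all genes, the most abundant transcript gave 2115 calls in dbdb vs. control (against 3840) and 1896 in dbR vs. control (against 3497), and 34 of the listed genes in dbR vs. control (against 55). In dbR vs. dbdb, where 108 genes were called, the count was 31 with no filter, 166 with a mean FPKM of at least 1, 203 with 75th percentile scaling, 234 with quantile normalization, 36 in the 6 libraries compared, 23 with the replicate block, 18 with no variance trend, 4 by the most abundant transcript and 2 to 141 with 1 library left out. Of the listed genes, 5 were called there, and 3 with no filter, 8 with a mean FPKM of at least 1, 8 with 75th percentile scaling, 3 with equal sums, 2 in the 6 libraries compared, 2 with the replicate block, 0 with no variance trend, 0 by the most abundant transcript and 0 to 5 with 1 library left out (limma). The log2 fold change changed sign in dbdb vs. control for Egfr (-0.03), to 0.0214 under quantile normalization, 0.13 with equal sums, 0.10 for the most abundant transcript and -0.12 to 0.0263 with 1 library left out, and for Erbb3 (-0.01), to 0.0188 with 75th percentile scaling, 0.0405 under quantile normalization, 0.15 with equal sums and -0.10 to 0.14 with 1 library left out. In dbR vs. dbdb it ranged with 1 library left out from -0.41 to 0.0171 for Btc, -0.10 to 0.0228 for Egfr, -0.0909 to 0.15 for Erbb3 and -0.0901 to 0.24 for Erbb4, and was -0.0092 for Erbb3 with equal sums. In dbR vs. control, it was 0.0166 for Egfr with equal sums and 0.0019 for its most abundant transcript, and -0.014 to 0.12 for Erbb3 with 1 library left out. Apart from the smaller number of libraries or transcripts that some alternatives use, the cause was not tested. Replicate numbers were not taken to pair the libraries in the main fit. The correlation of same-number pairs lay between -0.195 and 0.0608 over 9 pairs, and that of other-number pairs between -0.110 and 0.206 over 18 pairs. With so few libraries, these values cannot show that no batch or litter was shared. Depth limits Areg and Ereg, whose values near or at 0 rest on few or no fragments.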
